A study of Mus musculus with 8 samples.

Results

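The genes of alternatively activated macrophages examined here were Chil3, Retnla, Rnase2a, Arg1, F13a1, Mrc1, Clec10a, Cd163, Stab1 and Folr2, which are 10 of the 55414 mouse gene identifiers counted in PyMt mammary tumors. They were picked by name as a set, with results of the comparison described here already known, so their differences between groups are given as a description, with no p-value, and nothing is read from which of them passed a threshold. PyMt is a cell line grown out of a tumor of an MMTV-PyMt mouse, in which the MMTV promoter drives a viral oncogene in the mammary epithelium. The cells were implanted into the mammary fat pad of wild-type female C57BL/6 mice aged 6 to 8 weeks, which keep their own immune cells. All 8 tumors came from this 1 line and these wild-type hosts. Calcipotriol, a vitamin D analog, was applied at 20 nmol to the skin over 4 tumors every 2 days from day 2 after implantation. The skin over 4 control tumors received the solvent EtOH. Whole tumors were collected 24 hours after the final application. The labels number the EtOH-treated tumors 1 to 4 and the calcipotriol-treated tumors 1, 5, 6 and 7, and these numbers are used below as names only.

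Macrophages exposed to the type 2 cytokines IL-4 and IL-13 signal through the IL-4 receptor alpha chain and the transcription factor STAT6, and they take on a state called alternative activation. In mice it is recognized by secreted proteins such as Ym1 (Chil3) and RELM-alpha (Retnla), by the enzyme arginase 1 and by the mannose receptor. CD163, stabilin 1, folate receptor beta and coagulation factor XIII A mark macrophages that live in tissues and engulf debris, and many macrophages inside tumors carry them. Adgre1, which encodes the F4/80 surface receptor, and Cd68, a lysosomal glycoprotein, are found in most mouse macrophages whatever their state, and they serve here as the reference.

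Tumor libraries held 19685419 to 25084713 counts, and 3 counts corresponded to 0.12 to 0.152 CPM, the unit used throughout. CPM is counts per 1000000 counts, scaled to the effective library size from the trimmed mean of M values. Of the 14458 genes with enough counts for edgeR's quasi-likelihood test, 292 (2.02%) passed both thresholds, which were a p-value under 0.05 after Benjamini-Hochberg adjustment and a log2 fold change of 1 or more in either direction. Of these 155 (1.07%) were higher and 137 (0.948%) lower in calcipotriol-treated tumors. The labels call the cells epithelial. Krt8 and Krt18, keratins of simple epithelium, reached means of 592 and 558 CPM with EtOH, whereas Elf5, a factor of luminal progenitors, had 0 to 6 counts per tumor. All 20 pan-macrophage genes were detected in every tumor, so the RNA held macrophage transcripts. Samples of 1 group differed in ways the labels do not name. EtOH-treated tumors 3 and 4 had 106 and 65 counts of the epithelial gene Epcam, 37 and 21 of the adipocyte gene Adipoq and 395 and 344 of the muscle gene Acta1, against 0 and 0, 0 and 0, and 12 and 19 in EtOH-treated tumors 1 and 2. The sums of the whole lists did not all follow these genes. Mammary epithelial genes summed to 1250, 1320, 1010 and 1080 CPM in EtOH-treated tumors 1 to 4. Adipocyte genes summed to 28.4, 33.5, 36.2 and 37.4 CPM, and muscle genes to 0.826, 0.924, 32.5 and 33.8 CPM. Calcipotriol-treated tumor 1 stood apart from the other calcipotriol-treated tumors for several macrophage genes, as described below.

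The reference genes differed in how far the groups were apart. Adgre1 measured 61.0, 75.5, 80.1 and 76.3 CPM in EtOH-treated tumors and 51.8, 24.5, 24.6 and 23.1 CPM in calcipotriol-treated tumors 1, 5, 6 and 7. Every calcipotriol-treated tumor lay below every EtOH-treated tumor, with tumor 1 closest to them. The mean fell from 73.3 ± 8.38 to 31.0 ± 13.9 CPM (SD, n = 4 each), a log2 fold change of -1.24 (SE 0.25, edgeR adjusted p = 0.0325). An exact permutation test, two-sided and on log2 CPM, gave p = 0.0286, the smallest that 70 arrangements allow, and 0.0571 after adjustment over the 2 reference genes. The edgeR call was lost when any 1 tumor other than calcipotriol-treated tumor 1 was left out (adjusted p 0.058 to 0.106), while the log2 fold change stayed between -1.6 and -1.12. Cd68 measured 57.9, 71.5, 83.9 and 72.4 CPM with EtOH and 88.3, 62.5, 32.7 and 40.7 CPM with calcipotriol. These groups overlapped, because calcipotriol-treated tumor 1 had the highest value of all 8. Its log2 fold change was -0.35 (SE 0.27, edgeR adjusted p = 0.544, exact permutation p = 0.286).

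Other pan-macrophage genes were lower as well. Among 20 pan-macrophage genes, 4 fell, Adgre1 among them, and 0 rose by the edgeR thresholds, and all 20 had a negative log2 fold change with a median of -0.97, against 0.02 over all genes tested. Lyz2, the lysozyme of myeloid cells, fell by 1.75 on the log2 scale (SE 0.23, edgeR adjusted p = 0.00683). Csf1r, the receptor for the macrophage growth factor CSF1, fell by 1.64 (SE 0.35, edgeR adjusted p = 0.0374), and Fcgr3, a receptor for antibody, fell by 1.12 (SE 0.25, edgeR adjusted p = 0.0445). Ctss, a lysosomal protease, and C1qa, C1qb and C1qc, the chains of complement C1q, had log2 fold changes of -0.65, -0.74, -1.05 and -0.80 that did not pass the thresholds. The summed level of the list was 4950 to 6330 CPM with EtOH, 4180 CPM in calcipotriol-treated tumor 1 and 1840 to 2520 CPM in calcipotriol-treated tumors 5, 6 and 7. Without calcipotriol-treated tumor 1, 16 of the 20 genes fell, and the count ranged from 1 to 16 when each tumor was left out in turn. In RNA of a whole tumor, fewer macrophages and less of these transcripts per macrophage cannot be told apart. A member can therefore differ between groups in its own level, in its level relative to Adgre1 or Cd68, or in both, and the values are given both ways.

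Of the 10 members, 5 were higher in every calcipotriol-treated tumor than in every EtOH-treated tumor, 1 was lower in every one, and 4 overlapped. Over all genes tested, 6.31% were higher and 6.2% lower without overlap. The 9 members with enough counts for the fit included 4 past both thresholds, against the 2.02% of all genes tested, and since this comparison was in view when the set was chosen, nothing is read from that count. The members past the thresholds were Chil3, Retnla and Cd163, which were higher, and Stab1, which was lower. Rnase2a was the member with too few counts for the fit. The count of members past the thresholds ranged from 1 to 6 when each tumor was left out in turn. With DESeq2 or without the filter on low counts it was 6, with Clec10a and Rnase2a added. Rnase2a was also tested, and passed, when any 1 EtOH-treated tumor or calcipotriol-treated tumor 1 was left out. It had 0 counts in every EtOH-treated tumor, so nothing is read from its passing. Chil3 did not pass when any 1 tumor other than calcipotriol-treated tumor 1 was left out, Retnla did not pass without EtOH-treated tumor 1 or calcipotriol-treated tumor 6 or 7, and Cd163 did not pass without EtOH-treated tumor 1 or 2 or calcipotriol-treated tumor 5, 6 or 7. With limma-voom, a linear model of log2 CPM that weights values by their precision, it was 2, Cd163 and Stab1.

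**Figure D1:**
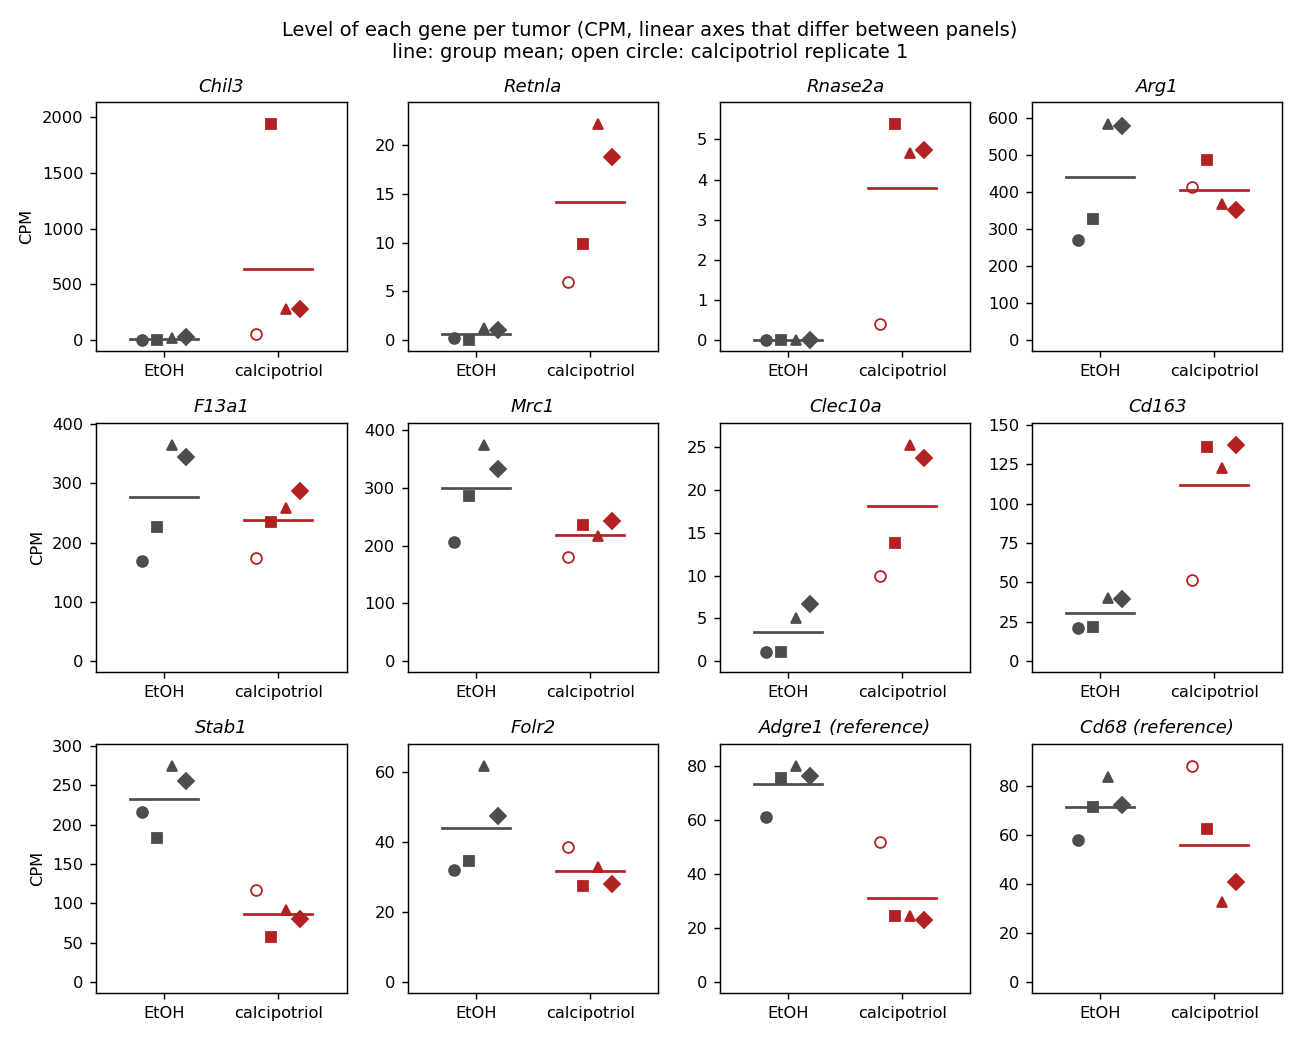
Level of each member and of the references Adgre1 and Cd68 in the 8 tumors, in CPM on linear axes that differ between panels. Points are single tumors (EtOH gray, calcipotriol red, calcipotriol-treated tumor 1 open), and lines are group means. Chil3, Retnla, Rnase2a, Clec10a and Cd163 are higher in all 4 calcipotriol-treated tumors, Stab1 and Adgre1 are lower in all 4, and Arg1, F13a1, Mrc1, Folr2 and Cd68 overlap.

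The secreted members had the widest differences. Chil3 encodes Ym1, a chitinase-like lectin without chitinase activity that forms crystals in the inflamed mouse lung. It lies on the minus strand of chromosome 3 from 106147554 to 106167564 (GRCm38). Chil3 reached 2.28, 4.82, 23.8 and 25.2 CPM with EtOH and 57.9, 1937, 282 and 279 CPM in calcipotriol-treated tumors 1, 5, 6 and 7. The groups did not overlap, and calcipotriol-treated tumor 5 stood far above the others. There, 42476 counts made Chil3 the 49th most abundant of all genes by CPM and 0.191% of the library. Mean levels were 14.0 ± 12.2 CPM with EtOH and 639 ± 872 CPM with calcipotriol (SD, n = 4 each), a log2 fold change of 5.50 (SE 1.16). Tumor 5 set much of this difference. Without it, the calcipotriol mean was 206 ± 129 CPM (SD, n = 3), 14.7-fold that with EtOH in place of 45.6-fold, and the log2 fold change was 3.87 (SE 0.82). Within the EtOH group the highest tumor was 11-fold above the lowest, and within the calcipotriol group 33.5-fold.

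Retnla encodes RELM-alpha, a small secreted protein of the resistin family that macrophages, adipocytes and airway epithelium release in type 2 responses. It lies on the plus strand of chromosome 16 from 48842551 to 48844461. Retnla had 5, 0, 31 and 24 counts in the EtOH group and 151, 215, 461 and 444 in the calcipotriol group. No EtOH-treated tumor came near the lowest calcipotriol-treated tumor, which was tumor 1. In CPM the means were 0.639 ± 0.611 and 14.2 ± 7.54 (SD, n = 4 each), a log2 fold change of 4.43 (SE 0.81). Across the alternatives the log2 fold change stayed between 4.03 and 5.21.

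Rnase2a, also named Ear11, encodes a secreted ribonuclease of the eosinophil-associated family that alternatively activated macrophages also produce. It lies on the minus strand of chromosome 14 from 51255262 to 51256112. Rnase2a was at 0 counts in all 4 EtOH-treated tumors and had 10, 118, 97 and 112 counts in calcipotriol-treated tumors 1, 5, 6 and 7. Set against 3 counts per library in the EtOH group, the mean of 3.79 ± 2.29 CPM (SD, n = 4) was at least 27.8-fold higher. Without calcipotriol-treated tumor 1, which had 0.397 CPM against 4.66 to 5.38 CPM in the others, it was at least 36.1-fold higher. The part of eosinophils in the Rnase2a level was not tested. The listed eosinophil genes were low or at 0. Prg2 and Ear1, which encode granule proteins of these cells, had 0 counts in all 8 tumors, Epx, the eosinophil peroxidase, had 0 to 2, and the 7 listed eosinophil genes summed to 0.0972 to 1.09 CPM with EtOH and 0.0423 to 0.873 CPM with calcipotriol.

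Upstream sequence is shown for these 3 genes, since they had the widest differences of the set. Windows come from RefSeq on GRCm38.p6, which held 8 of the 10 members (not Arg1 and Clec10a). Each run is written 5′ to 3′ on the strand of the gene and ends at the base before the annotated start in GENCODE M21. Capitals mark TTCNNNNGAA, the spacing that STAT6 prefers, TTCNNNGAA, the spacing of other STAT proteins, and TTGCNNAA, letters of C/EBP half-sites.
Retnla, chr16:48842359-48842550, plus strand: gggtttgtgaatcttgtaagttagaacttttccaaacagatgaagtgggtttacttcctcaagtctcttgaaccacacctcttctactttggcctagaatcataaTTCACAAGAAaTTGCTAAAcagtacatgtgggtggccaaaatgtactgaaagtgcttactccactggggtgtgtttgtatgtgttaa
Chil3, chr3:106167565-106167814, minus strand: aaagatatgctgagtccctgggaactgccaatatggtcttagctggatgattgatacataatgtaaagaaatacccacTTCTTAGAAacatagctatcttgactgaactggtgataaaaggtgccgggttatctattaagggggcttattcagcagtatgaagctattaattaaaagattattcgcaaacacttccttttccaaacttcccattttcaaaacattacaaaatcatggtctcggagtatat
Rnase2a, chr14:51256113-51256362, minus strand: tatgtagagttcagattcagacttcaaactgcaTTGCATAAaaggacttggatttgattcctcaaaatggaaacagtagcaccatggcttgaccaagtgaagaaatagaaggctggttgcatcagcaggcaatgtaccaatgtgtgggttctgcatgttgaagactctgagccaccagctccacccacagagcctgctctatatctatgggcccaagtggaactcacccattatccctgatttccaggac

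In the Retnla run, TTCNNNNGAA lay at positions -87 to -78 from the GENCODE start and TTGCNNAA at -76 to -69, with 1 base between them. The RefSeq start of Retnla lies 58 bases downstream of the GENCODE start, so its window was shortened to 192 bases for printing. Chil3 held TTCNNNGAA at -172 to -164 from its start, and Rnase2a held TTGCNNAA at -217 to -210 from its start. Both strands of the 250 upstream bases were searched for the 8 members with a window. Retnla was the member with TTCNNNNGAA, which occurs in 5.85% of 32851 promoter windows of the same length, and Chil3 the member with TTCNNNGAA, found in 7.02%. The C/EBP letters occur in 9.56% of windows. GAGGAAG, the core of PU.1 sites, occurs in 10.6%, and it was present upstream of F13a1, Mrc1 and Retnla. These matches describe letters in a window and not binding.

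Reads of the secreted members could be shared with close relatives. Chil4 matched Chil3 at 94.3% identity over 1540 bases and had 0 to 26 counts per tumor, and Ear2 matched Rnase2a at 81.1% over 694 bases and had 1 to 34 counts. Retnlg, a neutrophil gene, matched Retnla at 82.8% over 599 bases and had 41 to 323 counts, with 323 in calcipotriol-treated tumor 5 and 41 in tumor 1. All deposited values of Chil3, Retnla and Rnase2a were whole numbers. Neutrophil markers bear on Chil3, which neutrophil precursors also express. Of the 8 tested neutrophil genes 0 passed by edgeR, 1 had an unadjusted p under 0.05, and 0 passed by DESeq2 or limma-voom. The 12 listed genes summed to 99.6, 112, 37.4 and 36.1 CPM in EtOH-treated tumors 1 to 4. In calcipotriol-treated tumors 1, 5, 6 and 7 they summed to 45.3, 162, 73.4 and 54.1 CPM. Calcipotriol-treated tumor 5 was thus highest for this list and for Chil3. Within the EtOH group the order was opposite, with tumors 1 and 2 higher for the list and lower for Chil3. The part of these cells in the Chil3 level was not tested.

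The enzymes of the set overlapped between groups. Arg1 encodes arginase 1, which splits arginine into ornithine and urea, and it lies on chromosome 10 from 24915221 to 24927484. Arg1 measured 270, 326, 583 and 579 CPM with EtOH and 412, 487, 366 and 351 CPM with calcipotriol. The lowest and the highest values were both in EtOH-treated tumors. Means were 440 ± 165 and 404 ± 60.9 CPM (SD, n = 4 each), with a log2 fold change of -0.12 (SE 0.25) that ranged from -0.29 to 0.05 over the alternatives. F13a1, on chromosome 13 from 36867178 to 37050244, encodes the A subunit of the transglutaminase that cross-links fibrin and matrix. It measured 169, 227, 365 and 344 CPM with EtOH and 174, 234, 259 and 287 CPM with calcipotriol, a log2 fold change of -0.21 (SE 0.25). In both genes, EtOH-treated tumors 3 and 4 were above the other 6 tumors.

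Among 12 genes of arginine and polyamine metabolism, 1 rose and 0 fell, with a median log2 fold change of -0.02. The gene that rose was Slc7a2, a transporter that brings arginine into macrophages, from 99.0 to 236 CPM on average (log2 fold change 1.25, SE 0.14, edgeR adjusted p = 0.00293). Its lowest count with calcipotriol was 3918 and its highest count with EtOH 2265. Odc1, which makes putrescine from ornithine, Sat1, which acetylates polyamines, Ass1, which rebuilds arginine from citrulline, and Oat, which uses ornithine, did not pass the thresholds, with log2 fold changes of -0.24, -0.04, -0.89 and -0.02.

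The receptors split into those that were higher, those that overlapped and 1 that was lower. Cd163 encodes the scavenger receptor for haptoglobin-hemoglobin complexes and lies on chromosome 6 from 124304656 to 124330527. Its level was 20.8, 21.6, 40.3 and 39.4 CPM with EtOH and 51.7, 136, 123 and 137 CPM in calcipotriol-treated tumors 1, 5, 6 and 7. The groups did not overlap, and calcipotriol-treated tumor 1 lay between the EtOH-treated tumors and the other 3. Means were 30.5 ± 10.8 and 112 ± 40.7 CPM (SD, n = 4 each), a log2 fold change of 1.87 (SE 0.33). It was 2.11 (SE 0.25) without calcipotriol-treated tumor 1.

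Clec10a encodes MGL1, a lectin for galactose-type sugars that macrophages and some dendritic cells carry, on chromosome 11 from 70156197 to 70170834. Its counts were 21, 21, 124 and 152 with EtOH and 251, 303, 527 and 561 with calcipotriol. The calcipotriol-treated tumors were all above the EtOH-treated tumors, but EtOH-treated tumors 3 and 4 were nearer to them than EtOH-treated tumors 1 and 2. The log2 fold change was 2.40 (SE 0.60). Its neighbour in sequence, Mgl2, matched it at 96.1% over 735 bases and had 18 to 105 counts, with a log2 fold change of 0.85 (SE 0.48, edgeR adjusted p = 0.379). Only 1 deposited value of Clec10a was not whole. Of 5 tested dendritic cell genes 0 passed by edgeR or limma-voom, 1 had an unadjusted p under 0.05, and 1 passed by DESeq2. The listed dendritic cell genes summed to 11.2 to 19.3 CPM with EtOH and 7.25 to 27.4 CPM with calcipotriol.

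Mrc1, on chromosome 2 from 14229392 to 14332057, encodes the mannose receptor CD206, which takes up glycoproteins. It measured 207, 286, 374 and 332 CPM with EtOH and 181, 235, 216 and 243 CPM with calcipotriol, a log2 fold change of -0.45 (SE 0.18). The lowest EtOH-treated tumor lay within the range of the calcipotriol-treated tumors, and the other 3 lay above it. Folr2 encodes folate receptor beta and lies on chromosome 7 from 101839988 to 101857194. It measured 31.9, 34.5, 61.8 and 47.4 CPM with EtOH and 38.5, 27.4, 32.8 and 28.1 CPM with calcipotriol, a log2 fold change of -0.47 (SE 0.22). Its deposited values were not whole in any of the 8 tumors, which means that some of its reads were divided between genes. An antisense gene, Gm10602, overlaps it and had 10 to 56 counts, and without strand their reads cannot be told apart.

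Stab1 was the member that was lower. It encodes stabilin 1, a receptor that clears modified lipoproteins and cell corpses and that endothelium also carries, and it lies on the minus strand of chromosome 14 from 31139013 to 31168641. Stab1 measured 216, 183, 275 and 255 CPM with EtOH and 117, 56.9, 92.0 and 79.9 CPM with calcipotriol. Every calcipotriol-treated tumor was below every EtOH-treated tumor, and tumor 1 was the highest of them, as for Adgre1. Means were 232 ± 41.0 and 86.4 ± 25 CPM (SD, n = 4 each), a log2 fold change of -1.43 (SE 0.22) that stayed between -1.61 and -1.27 over the alternatives. All 8 tested endothelial genes had negative log2 fold changes. Kdr, Vwf, Tie1 and Pecam1 fell, by 1.75, 1.75, 1.65 and 1.36 on the log2 scale (edgeR adjusted p = 0.00384, 0.0179, 0.0424 and 0.0331). This count of 4 was 2 with limma-voom, 6 with DESeq2, 5 without calcipotriol-treated tumor 1, 2 without EtOH-treated tumor 1, and 1 without EtOH-treated tumor 2 or calcipotriol-treated tumor 5, 6 or 7. The 10 listed endothelial genes summed to 185 to 354 CPM with EtOH and 74.0 to 124 CPM with calcipotriol. The part of endothelium in the Stab1 level was not tested. Stab1 also overlaps Nt5dc2 on the opposite strand by 112 bases at its 3′ end, and Nt5dc2 had 290 to 1096 counts.

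Per kilobase of exon, Arg1 was the most abundant member in EtOH-treated tumors, at a mean of 197 CPM per kilobase, and it was above the next member in all 4. Mrc1, F13a1, Folr2 and Stab1 followed at 47.0, 41.0, 28.4 and 22.6 CPM per kilobase, and each was above the next in 4 of 4 tumors except Folr2 over Stab1, which held in 3. Chil3 at 8.59 and Cd163 at 5.59 CPM per kilobase kept this order in 2 of 4 tumors, and so did Clec10a at 1.19 and Retnla at 1.07. These neighbours were therefore not separated beyond the spread between tumors. With calcipotriol the order was different. Chil3 had the highest mean, 392 CPM per kilobase, which rested on tumor 5. Its values were 35.5, 1187, 173 and 171 CPM per kilobase in tumors 1, 5, 6 and 7, against 185, 218, 164 and 158 for Arg1. Without tumor 5 the means were 126 for Chil3 and 169 for Arg1, so the order turned. F13a1 at 35.4 and Mrc1 at 34.3 CPM per kilobase were in this order in 2 of 4 tumors, and Retnla at 23.7 was above Folr2 at 20.5 in 2 of 4. Cd163 reached 20.5 CPM per kilobase, Stab1 8.40, Clec10a 6.28 and Rnase2a 5.50. The neighbours Chil3 and Arg1, F13a1 and Mrc1, and Retnla, Folr2 and Cd163, did not differ beyond their spread.

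**Figure D2:**
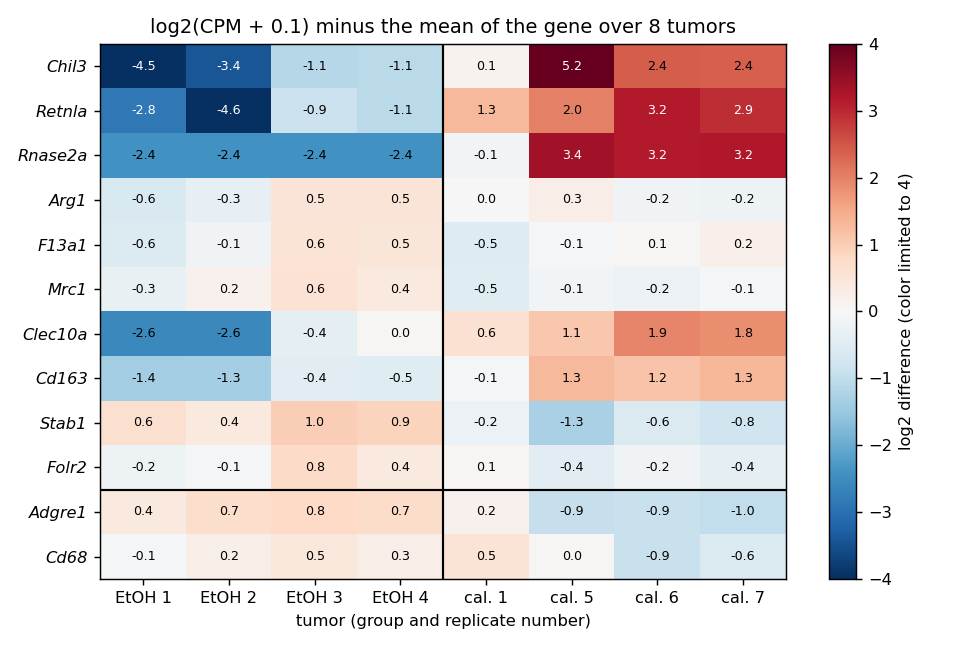
Profile of each member and reference over the 8 tumors, as log2(CPM + 0.1) minus the mean of that gene (columns: tumors by group and number, rows: genes, color: log2 difference, limited to 4 either way). Chil3, Retnla, Rnase2a, Clec10a and Cd163 run from blue to red across the line between groups, and Stab1 and Adgre1 run the other way. EtOH-treated tumors 3 and 4 are above EtOH-treated tumors 1 and 2 for 9 of the 10 members. The exception is Rnase2a, which is at 0 counts in all 4. The share of all genes with this order was not counted. These pairs of tumors also differ over 13364 genes, so nothing is read from the count.

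Set against Adgre1 within each tumor, members must be read against all genes, because Adgre1 itself was lower. Ratios are counts of the member over counts of the reference after adding 0.5 to both, and they need no scaling between libraries. Over the 14458 genes tested, the ratio to Adgre1 was higher without overlap for 55.8% and lower for 0.159%, the difference of mean log2 ratios was positive for 96.8%, and its median was 1.36. Among the 10 members it was higher without overlap for 6 and overlapped for 4, the difference was positive for 9, and its median was 2.22, also with Rnase2a at its bound. The count of members is thus near that of all genes. Their median lay in a gap between Cd163 at 3.16 and Arg1 at 1.27. Since the set was chosen with this comparison known, nothing is read from that median. Chil3 had 0.0378, 0.064, 0.298 and 0.33 counts per count of Adgre1 with EtOH and 1.12, 79.0, 11.5 and 12.0 with calcipotriol. For Cd163 the ratio was 0.341, 0.286, 0.503 and 0.516 with EtOH and 0.998, 5.55, 4.99 and 5.93 with calcipotriol. Per kilobase of exon, the level of Cd163 was 0.17 to 0.306 of that of Adgre1 in EtOH-treated tumors, 0.592 in calcipotriol-treated tumor 1 and 2.96 to 3.52 in calcipotriol-treated tumors 5, 6 and 7. Rnase2a relative to Adgre1 was at least 48.9-fold higher, with 3 counts per library as the EtOH level.

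Arg1 was close to the middle of all genes on this scale. Its CPM overlapped between groups, and its ratio to Adgre1 was 4.42, 4.32, 7.28 and 7.58 with EtOH and 7.96, 19.9, 14.9 and 15.2 with calcipotriol, which did not overlap (difference of mean log2 ratios 1.27, against the median of 1.36 over all genes). Mrc1 to Adgre1 was 3.39, 3.79, 4.67 and 4.34 with EtOH and 3.49, 9.61, 8.78 and 10.5 with calcipotriol. Calcipotriol-treated tumor 1 lay inside the EtOH range and the other 3 above it. F13a1 and Folr2 had differences of 1.15 and 0.89 on the same log2 scale, with overlap, also below that median. Stab1 to Adgre1 was 3.54, 2.42, 3.43 and 3.34 with EtOH and 2.26, 2.32, 3.74 and 3.45 with calcipotriol, a difference of -0.13 with overlap.

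Against Cd68 the background was lower. Over all genes tested, 4.94% had a ratio to Cd68 that was higher without overlap and 1.04% one that was lower, with a median difference of 0.48. The ratio to Cd68 was higher without overlap for 5 members, Chil3, Retnla, Rnase2a, Clec10a and Cd163, with differences of mean log2 ratios of 5.52, 5.79, at least 4.73, 3.23 and 2.29. Arg1 and F13a1 differed by 0.39 and 0.28, and Mrc1 and Folr2 by 0.01 each, with overlap. The SDs of the log2 ratio to Cd68 were 0.41 and 0.53 for Arg1 and 0.16 and 0.77 for Mrc1 (EtOH and calcipotriol), larger than or similar to those differences. Stab1 had a difference of -1.01 with overlap, since calcipotriol-treated tumor 6 reached 2.81 counts per count of Cd68 and EtOH-treated tumor 2 had 2.56. The median over the 10 members was 1.34, in a gap between Cd163 at 2.29 and Arg1 at 0.39. With the geometric mean of the 20 pan-macrophage genes as the reference, the median over members was 2.13, near the value for Adgre1. For that reference the median over all genes was not computed, and all 20 of its genes had a negative log2 fold change. The set was chosen with this comparison known, so nothing is read from these medians.

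**Figure D3:**
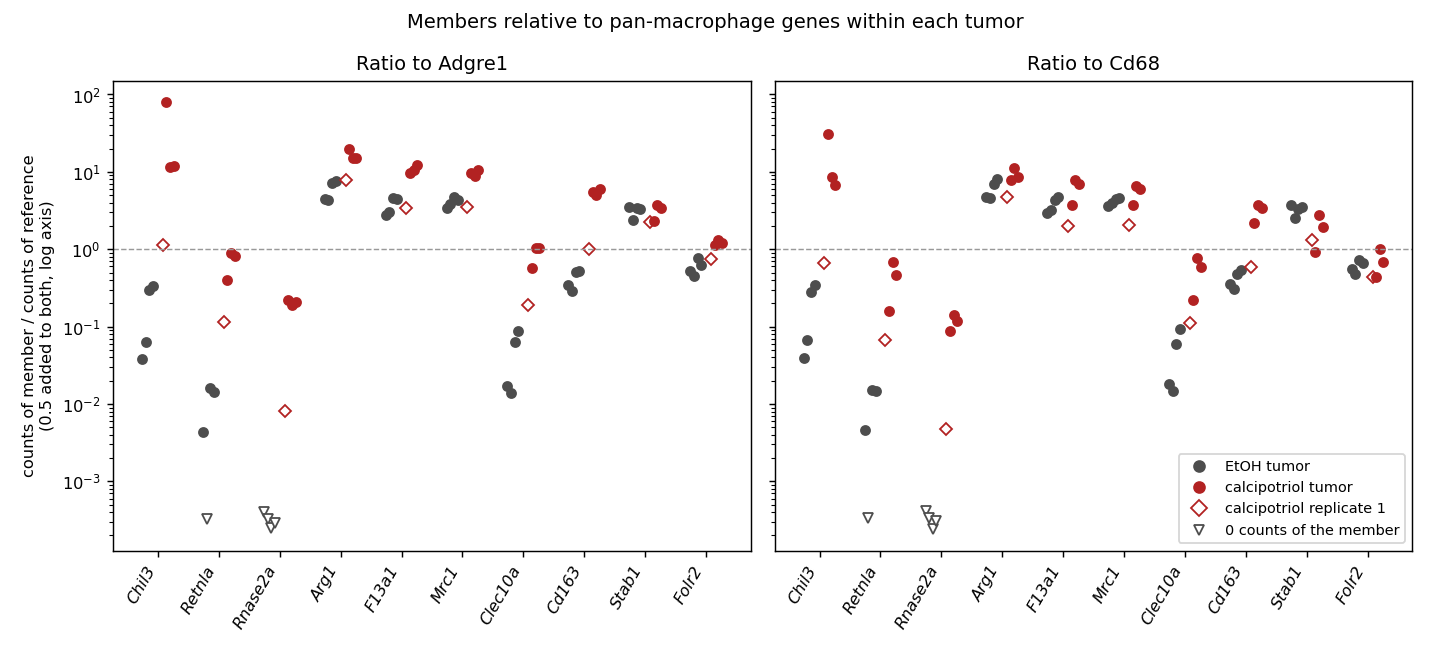
Counts of each member per count of Adgre1 (left) and of Cd68 (right) in each tumor, with 0.5 counts added to both and a log axis. Gray points are EtOH-treated tumors, red points calcipotriol-treated tumors, open diamonds calcipotriol-treated tumor 1 and open triangles tumors with 0 counts of the member. Chil3, Retnla, Rnase2a, Clec10a and Cd163 separate by group against both references, and Arg1 separates against Adgre1 alone, as 55.8% of all genes tested do.

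Members resembled other genes of different kinds in their profile over the 8 tumors. Likeness was measured as the root mean square difference of log2 CPM after subtracting the mean of each gene, over the 11942 tested genes whose mean was 50 counts or more. Nearest to Retnla were Serpinb2, Spint2 and Sprr2a2 at 0.46, 0.68 and 0.79, small against the 2.69 of its own profile. Chil3 had no close match, with Perp and Inmt at 1.16 and 1.26 and Foxr2 next. Prg4, Cyp1b1 and Prl2c2 were nearest to Clec10a at 0.39, 0.43 and 0.47, and Mtmr7, Mgst1 and Sema3c to Cd163 at 0.26, 0.32 and 0.32. Stab1 was nearest to Plet1, N4bp3 and Atp8a1 at 0.18, 0.19 and 0.20. The flat profiles of Arg1, F13a1, Mrc1 and Folr2 had neighbours at 0.07 to 0.13. Dynll1, Hikeshi and Anp32a were nearest to Arg1, Ccna2, Rrm1 and Melk to F13a1, Tpx2, mt-Nd3 and Lbr to Mrc1, and 2510009E07Rik, Dusp19 and Kmt5a to Folr2. The nearest pairs within the set were F13a1 and Mrc1 at 0.20, Mrc1 and Folr2 at 0.28, and Arg1 and F13a1 at 0.29, and the farthest was Chil3 and Stab1 at 3.72. All values share the same libraries, so they describe these 8 tumors only.

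Genes of the IL-4 and STAT6 response gave 1 call. Of 21 listed genes present in the data, 15 had enough counts for the test. Of the 15 tested, 1 rose and 0 fell, with 10 positive and 5 negative log2 fold changes. Their median was 0.43, against 0.02 over all genes tested, and 0.16 without calcipotriol-treated tumor 1. The gene that rose was Ccl24, eotaxin-2, a chemokine that alternatively activated macrophages release to attract eosinophils. Its counts were 16, 16, 18 and 39 with EtOH and 93, 379, 293 and 252 with calcipotriol (log2 fold change 3.50, SE 0.51, edgeR adjusted p = 0.009). Some listed genes had too few counts for the test. The chemokine Ccl17 had 4, 6, 24 and 17 counts with EtOH and 21, 1, 2 and 1 with calcipotriol. Ccl22 had 0, 8, 27 and 26 against 11, 0, 2 and 0. Pdcd1lg2 went the other way, with 0, 0, 6 and 4 against 67, 13, 7 and 16. Receptor and signal genes were abundant and did not pass both thresholds. Il4ra had a log2 fold change of 0.19 (SE 0.12), Stat6 of -0.10 (SE 0.11), Tgm2, a transglutaminase, of 0.61 (SE 0.19) and Il13ra1, the partner chain of the IL-13 receptor, of 0.81 (SE 0.13, edgeR adjusted p = 0.0137, short of the fold threshold). Alox15, a lipoxygenase of the IL-4 response, lay on the other side of 0, with 10, 14, 644 and 465 counts in the EtOH group and 3, 18, 31 and 36 in the calcipotriol group (log2 fold change -3.60, SE 1.2, edgeR adjusted p = 0.144), and the groups overlapped. The count of calls was 2 with DESeq2, 0 with limma-voom and 2 without calcipotriol-treated tumor 1, where 1 was lower.

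The ligands that start this program were scarce. Il4 had 0, 0, 0 and 6 counts with EtOH and 6, 0, 5 and 4 with calcipotriol, and Il13 had 0 in all EtOH-treated tumors and 0, 8, 6 and 2 with calcipotriol. A difference in Il4 was not detectable at this depth. Il5 had 0 to 9 counts, Il25 0 to 2 and Il9 0 in all 8 tumors. Of the 7 ligands tested, 1 rose and 0 fell. Tslp, an epithelial cytokine that primes type 2 responses, rose from 146 to 205 counts per tumor with EtOH to 339, 1142, 501 and 534 with calcipotriol (log2 fold change 1.82, SE 0.35, edgeR adjusted p = 0.0276). The count of ligands past the thresholds was 3 without calcipotriol-treated tumor 1, 1 without calcipotriol-treated tumor 5 and 0 without any other 1 tumor or with limma-voom. Il33, an alarm cytokine of barrier and stromal cells, averaged 667 and 1190 CPM with EtOH and calcipotriol (log2 fold change 0.84, SE 0.23, edgeR adjusted p = 0.0814). Csf1, the main macrophage growth factor, averaged 306 and 328 CPM, Tgfb1 271 and 183 CPM, and Il34, the other ligand of the CSF1 receptor, 49.4 and 38.7 CPM, and none of these 3 passed the thresholds.

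Other macrophage programs gave few calls. Of 16 tested genes of tissue-resident macrophages, edgeR called 0, with 5 at an unadjusted p under 0.05, and DESeq2 and limma-voom called 2 each. Their median log2 fold change was -0.09. Selenop, Maf and Cbr2, which are among the most abundant by count, had log2 fold changes of -0.11, -0.84 and -0.75. Ccl8, a monocyte chemokine singled out after its values were seen, had 46 to 595 counts with EtOH and 1615 to 2175 with calcipotriol (log2 fold change 2.83, SE 0.66, edgeR adjusted p = 0.0511). Of 13 other scavenger and uptake receptors, 2 fell and 0 rose. The count was 1 without calcipotriol-treated tumor 5, 6 or 7, 3 without EtOH-treated tumor 4, and 5, of which 1 was higher, without calcipotriol-treated tumor 1. Cd93, which is also endothelial, fell by 1.58 (SE 0.25, edgeR adjusted p = 0.0123), and Clec4n, the fungal receptor Dectin-2, fell by 1.91 (SE 0.33, edgeR adjusted p = 0.0179). Lrp1, Axl, Mrc2 and Colec12 had log2 fold changes of -0.24, -0.41, -0.10 and -0.40. The list had a median of -0.96 with 12 of 13 genes negative.

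Classical activation genes, which mark macrophages stimulated by interferon gamma or endotoxin, gave 0 calls by edgeR and limma-voom among 15 tested. At an unadjusted p under 0.05 there were 4, and DESeq2 called 1. The list had 9 positive and 6 negative log2 fold changes. Its median was 0.46, near that of the IL-4 and STAT6 list, and -0.1 without calcipotriol-treated tumor 1. Ptgs2, the inducible cyclooxygenase, Cd38, an ectoenzyme, the cytokine Il1b and the transcription factor Irf5 had log2 fold changes of 0.69, -0.28, -0.49 and -0.66. Cxcl10, an interferon-induced chemokine, had 1677 counts in calcipotriol-treated tumor 1 and 202 to 374 in the other 7 tumors. The chemokine Cxcl9 had 3, 3, 49 and 20 counts with EtOH and 651, 87, 60 and 54 with calcipotriol, without overlap. Its log2 fold change was 3.44 (SE 1.01, edgeR adjusted p = 0.103). Of 8 monocyte genes, 1 fell and 0 rose, and that was Itga4, an integrin of circulating leukocytes (log2 fold change -2.23, SE 0.47, edgeR adjusted p = 0.0345). The count was 3 without calcipotriol-treated tumor 1, 2 with DESeq2, and 0 without EtOH-treated tumor 1, 2 or 3 or calcipotriol-treated tumor 5, 6 or 7. The summed level of the monocyte list was 66.5 to 180 CPM with EtOH and 64.5 to 101 CPM with calcipotriol.

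**Figure D4:**
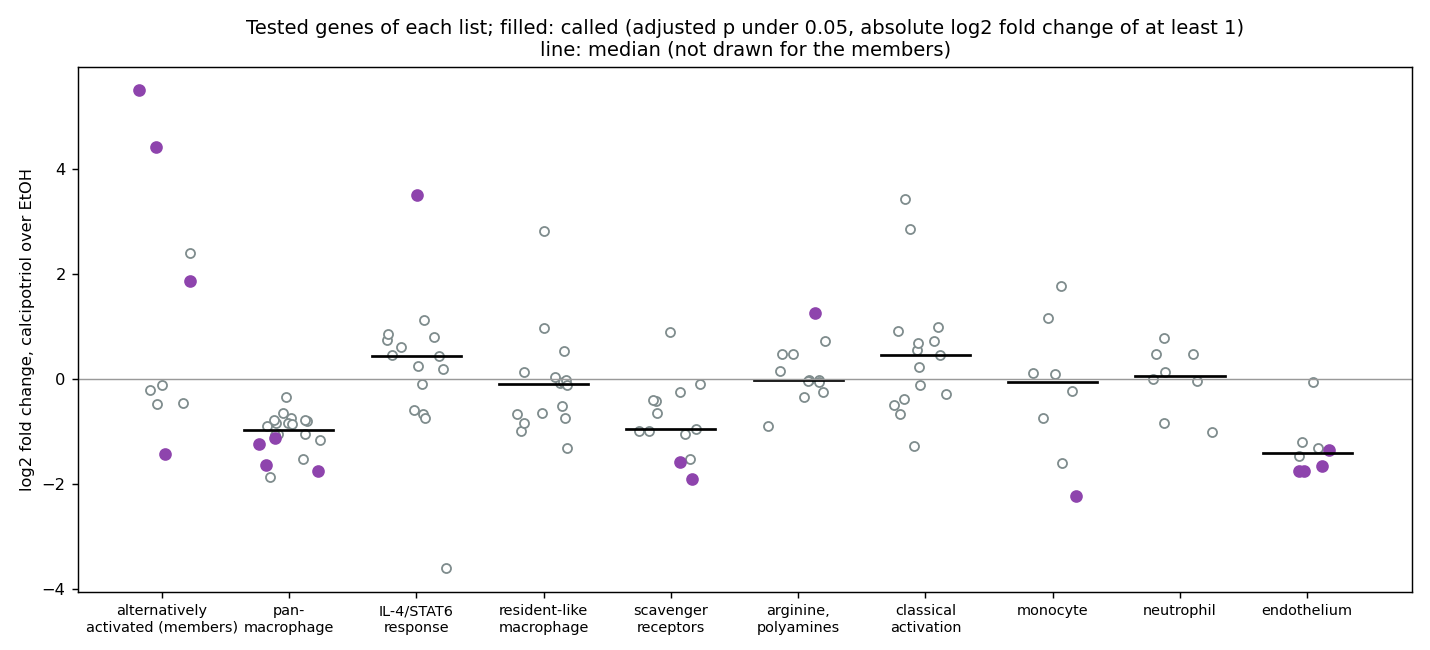
Log2 fold change of calcipotriol over EtOH for the tested genes of each list, 1 point a gene, filled where the gene passed both thresholds in edgeR, with the list median as a line except for the members. The pan-macrophage and endothelial genes lie below 0, with medians of -0.97 and -1.41. The IL-4 and STAT6 list has a median of 0.43 and the classical activation list 0.46, and the members range from -1.43 to 5.50.

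Some markers of other cells moved in the same tumors as some members. Krt14, a keratin of basal epithelium and skin, rose from 12, 0, 37 and 15 counts in the EtOH group to 40, 223, 963 and 1023 in calcipotriol-treated tumors 1, 5, 6 and 7 (log2 fold change 5.17, SE 1.07, edgeR adjusted p = 0.0336). Its highest values were in tumors 6 and 7, where Retnla and Clec10a were highest as well. It was 1 of 4 tested keratinocyte genes past the thresholds, and the count was 0 with limma-voom or without any 1 tumor other than calcipotriol-treated tumor 1. The 6 listed genes summed to 11.8 to 14.9 CPM with EtOH and 5.71 to 63.5 CPM with calcipotriol. Lor had 45 to 192 counts with calcipotriol against 183 to 243 with EtOH. Krt5 had 15, 0, 69 and 41 counts with EtOH and 4, 16, 45 and 33 with calcipotriol. Krt10 had a log2 fold change of 0.19 (SE 0.58), so other keratinocyte genes did not follow Krt14. Of 4 tested adipocyte genes 1 fell, Fabp4 (log2 fold change -1.19, SE 0.17, edgeR adjusted p = 0.0082), and the list summed to 28.4 to 37.4 CPM with EtOH and 13.1 to 20.8 CPM with calcipotriol. Of 5 tested mammary epithelial genes, 5 mast cell genes and 4 muscle genes, edgeR called 0 in each list, with 2, 1 and 1 at an unadjusted p under 0.05. DESeq2 called 0, 1 and 0 of them, and limma-voom 0 in each. Mammary epithelial genes summed to 1010 to 1320 CPM with EtOH and 592 to 890 CPM with calcipotriol. Within that list Krt8 and Krt18 had log2 fold changes of -0.69 (SE 0.20, edgeR adjusted p = 0.0966) and -0.93 (SE 0.16, edgeR adjusted p = 0.0162, short of the fold threshold). Both were lower in every calcipotriol-treated tumor than in every EtOH-treated tumor, as were 6.2% of all genes tested. Epcam had 0, 0, 106 and 65 counts with EtOH and 38, 26, 398 and 536 in calcipotriol-treated tumors 1, 5, 6 and 7. Its log2 fold change was 2.62 (SE 1.33). Mast cell genes summed to 19.2 to 54.5 CPM with EtOH and 18.2 to 50.7 CPM with calcipotriol. Muscle genes summed to 0.826 to 33.8 CPM with EtOH and 0.516 to 5.33 CPM with calcipotriol. The part of these cells in the levels of the members was not tested.

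Few close relatives of the members could be tested. Of 18 relatives listed, 6 had enough counts for the test, and edgeR called 0, with 0 at an unadjusted p under 0.05 and 1 by DESeq2. Arg2, the mitochondrial arginase, had a log2 fold change of 0.48 (SE 0.61), Mrc2 of -0.10 (SE 0.15), Retnlg of -0.04 (SE 0.70) and Chil1 of 0.37 (SE 0.77). Chia1, Retnlb, Ear1, Ear6 and Ear10 had 0 counts in all 8 tumors. Chil4 had 0 counts in all 4 EtOH-treated tumors and 0, 12, 16 and 26 in calcipotriol-treated tumors 1, 5, 6 and 7.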

How the data were processed

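RNA of 8 PyMt mammary tumors (4 per group) was sequenced, and the authors deposited 1 table of expected counts per gene (estimated counts, without scaling between tumors). The submitters' processing notes name STAR 2.5.3, RSEM 1.3.1, DESeq2 1.24.0 and GRCm38, without their roles. The methods name limma and Pipeline v5.0. The labels and the methods name different sequencers. Between 4.2% and 6.22% of the deposited values of a tumor were not whole, since RSEM divides reads between genes, and all were rounded. This is the change made to a test planned for counts. Reads that match a gene and a close copy are thereby assigned by a model. The strand setting is not given in the sources used here. The table has 0 columns of other samples.

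Groups came from the labels. Nothing in the labels says that each tumor is from a separate mouse, while the methods speak of biological replicates. Pairs of tumors of 1 group differed by 20.2 to 133 times the counting error, so every tumor was counted as a library of its own. EtOH-treated tumors 1 and 2 (41.7) and 3 and 4 (20.2) were closer to each other than across these pairs (81.8 to 106), and the labels do not say how they are related. Of 55414 identifiers, 52081 matched GENCODE M21 (GRCm38). The comparison used edgeR 4.0.16 under R 4.3.3 (filterByExpr, TMM, glmQLFit, glmQLFTest), and p-values were adjusted over all 14458 genes. Thresholds were an adjusted p of 0.05 and an absolute log2 fold change of 1. SEs were derived from the F statistic. Log2 CPM used a prior count of 2. At 19685419 to 25084713 counts per tumor, the floor was 3 counts per library, which covers counting error only. Permutation tests used scipy 1.17.1, and blastn 2.17.0 aligned transcripts for near copies. The tests were first checked on simulated counts with known changes.

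The members, the 18 other gene lists and the tests were chosen with earlier results of these data known. Genes named are the members and references, the genes of each list past the thresholds, up to 4 other abundant genes a list, and the 3 nearest profiles for each tested member. Elf5, Ccl8, Cxcl9, Cxcl10, Alox15, Ccl17, Ccl22, Pdcd1lg2, Prg2, Epx and Chil1 were named after their values were seen. So were Il4, Il13, Il5, Il9, Il25 and the relatives at or near 0 counts. Ear11 in the lists is the older name of Rnase2a. Alternatives were DESeq2 size factors, no filter on low counts, DESeq2 1.42.0, limma-voom 3.58.1, no fold change minimum, 1 count added to ratios, the pan-macrophage list as denominator, and each tumor left out. Other experiments of the study were not analysed here.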

Additional observations from a re-analysis of the deposited data

Results flagged for a closer look

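Of 64 groups of 4 tumors examined for a lone value by Dixon's test at the 95% level, 8 had one, against 3.2 by chance. In 7 of the 8 it was calcipotriol-treated tumor 1. Its level of Rnase2a was 0.397 CPM, with 4.66 to 5.38 CPM in calcipotriol-treated tumors 5, 6 and 7, that of Cd163 was 51.7 CPM against 123 to 137 CPM, and that of Adgre1 was 51.8 CPM against 23.1 to 24.6 CPM. Relative to Adgre1, it had a ratio of 0.00804 for Rnase2a (others 0.19 to 0.22), 3.49 for Mrc1 (others 8.78 to 10.5) and 0.998 for Cd163 (others 4.99 to 5.93). Relative to Cd68 its ratio for Rnase2a was 0.00472 (others 0.0865 to 0.143). These values share counts with one another and are not 7 separate observations. The remaining value was the ratio of Stab1 to Adgre1 in EtOH-treated tumor 2, which was 2.42 against 3.34 to 3.54 in the other EtOH-treated tumors.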

How the results depend on the processing

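The number of genes past the thresholds was 292, and it was 458 without the filter on low counts, 774 with DESeq2, and 110 to 642 when each tumor was left out, lowest without calcipotriol-treated tumor 6 and highest without calcipotriol-treated tumor 1. The number of members past the thresholds was 4, and it was 2 with limma-voom and 1 to 6 when each tumor was left out (2 without calcipotriol-treated tumor 5 or EtOH-treated tumor 1, 1 without calcipotriol-treated tumor 6 or 7, 6 without calcipotriol-treated tumor 1). Rnase2a was tested, and was among the members counted, when 1 EtOH-treated tumor or calcipotriol-treated tumor 1 was left out. The log2 fold change of Adgre1 was -1.6 to -1.12 when each tumor was left out. Against the pan-macrophage list, differences of mean log2 ratios were 1.18 for Arg1, 1.06 for F13a1, 0.80 for Mrc1 and Folr2 and -0.23 for Stab1. The genes of that list were themselves lower, and the median over all genes was not computed for it. Nothing is therefore read from the sign of these differences. Against Cd68 itself the differences were 0.39 for Arg1, 0.28 for F13a1, 0.01 for Mrc1 and Folr2 and -1.01 for Stab1, with a median of 0.48 over all genes tested. No called value changed sign under these alternatives. The cause of these shifts was not tested. Rounding, depth and 4 tumors per group limit what the low members, such as Rnase2a and Retnla with EtOH, can show. No paired analysis was made, because the labels pair no tumor of a group with a tumor of the other group.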
